A study of Mus musculus with 6 samples.

Results

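Transcripts of 7 GABA-A receptor subunits were compared between RNA pulled down with tagged ribosomes and the matching input of mouse thalamus. The subunits were the alpha subunits Gabra2, Gabra3, Gabra4 and Gabra5, the beta subunits Gabrb1 and Gabrb2 and the delta subunit Gabrd, taken by gene symbol from the 32531 named genes of the count files. All 7 were found, and all 7 passed the filter on low counts. Another 9 subunit genes of the same family were read as their setting. The samples were 3 immunopurified (IP) and 3 Input libraries from the thalamus of adult, untreated control mice of the line Cbln1-TRAP NIDA030. All 6 carried the EGFP-Rpl10a fusion, a ribosomal protein tagged with green fluorescent protein, in a line named for Cbln1. IP libraries held RNA recovered with antibodies against the tag. The labels call the RNA of both kinds ribosome-bound, and they give neither the number of animals nor any pooling, so the p-values below measure the spread between these samples, which may be technical. The deposited names point to the parafascicular nucleus, an intralaminar thalamic nucleus, whereas the labels name the thalamus as a whole.

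GABA-A receptors are pentameric chloride channels opened by GABA, usually built from a pair of alpha subunits, a pair of beta subunits and a gamma or delta subunit. Receptors with alpha2 or alpha3 and a gamma subunit sit mostly at synapses and carry brief inhibition. Receptors with delta, in forebrain mostly beside alpha4, and many receptors with alpha5 lie outside synapses and carry a tonic current. In thalamic relay neurons the tonic current is known to come from receptors of alpha4, beta2 and delta, whereas alpha3 is the alpha subunit of the reticular nucleus.

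One stretch of the alpha subunit coding sequence is shown because it separates Gabra4 from Gabra2, Gabra3 and Gabra5. Other alpha subunits were not compared. Each line is the sense strand of a stretch of 36 bases, and capitals mark the codon for the residue on which classical benzodiazepines depend: a histidine in alpha2, alpha3 and alpha5, and an arginine in alpha4. The sequences are from GENCODE M21 transcripts on mm10.
Gabra2: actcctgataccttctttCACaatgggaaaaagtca
Gabra3: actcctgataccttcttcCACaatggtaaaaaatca
Gabra4: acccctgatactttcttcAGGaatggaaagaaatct
Gabra5: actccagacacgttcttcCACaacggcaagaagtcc
The stretch lies on the minus strand of chr5:71014490-71014525 in Gabra2 (exon 5 of 10), of chrX:72501153-72501188 in Gabra3 (exon 5 of 10), of chr5:71641137-71641172 in Gabra4 (exon 4 of 9) and of chr7:57488876-57488911 in Gabra5 (exon 5 of 10). Counted from 1 at the first base of the stretch, the Gabra4 codon differs from that of Gabra2 by C19A, A20G and C21G. Over the whole stretch Gabra4 differs from Gabra2 at 10 bases, Gabra5 at 8 and Gabra3 at 3. Gabra3 and Gabra5 carry the same capital codon as Gabra2.

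Assigned counts ran from 45256700 to 57385828 in IP and from 23929070 to 47741219 in Input, and each of the 7 subunits had at least 110 counts in every library. The ribosomal RNA gene Rn45s held 9.38 to 14.5% of assigned counts in IP and 5.21 to 5.40% in Input. Fewer genes had a count in IP (16561 to 17206) than in Input (19933 to 20832). Levels are given as CPM (counts relative to library size, in the usual unit), scaled between libraries by the trimmed mean of M-values (TMM). Cbln1 checked the pull-down: it had 1361, 1428 and 1496 CPM in IP replicates 1 to 3, against 68.9, 83.2 and 87.2 CPM in Input. Replicate 1 stood apart in both groups in Ttr, a gene of the choroid plexus beside the thalamus, with 0, 40.6 and 35.1 CPM in IP replicates 1 to 3, against 2.78, 477 and 542 CPM in Input. Of the 6 libraries, IP replicate 1 also had the largest shares of Rn45s (14.5%) and of reads not aligned uniquely (49.7%), and the fewest genes with a count (16561). Of 8 markers of glutamatergic thalamic neurons, 5 were higher and 1 lower in IP, beside 23.3% higher and 24.3% lower over all genes tested. The 8 markers summed to 4510 to 5094 CPM in IP and 3126 to 3631 CPM in Input.

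Calls among the 7 subunits ran in both directions. Gabra4 and Gabrb2 rose in IP, 1.92-fold and 1.42-fold, while Gabrd fell to 0.269 of its Input level. Which subunits share a receptor was not measured. Gabra2, Gabra3, Gabra5 and Gabrb1 did not pass the test. Over all 16898 genes tested by edgeR's quasi-likelihood test, 47.5% were called at an adjusted p of 0.05, 23.3% higher and 24.3% lower in IP. A count of 2 higher and 1 lower among 7 subunits is therefore close to the background, and what follows rests on each subunit's own values. The median log2 fold change was -0.01 over the 7 subunits and -0.07 over all genes tested.

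**Figure D1:**
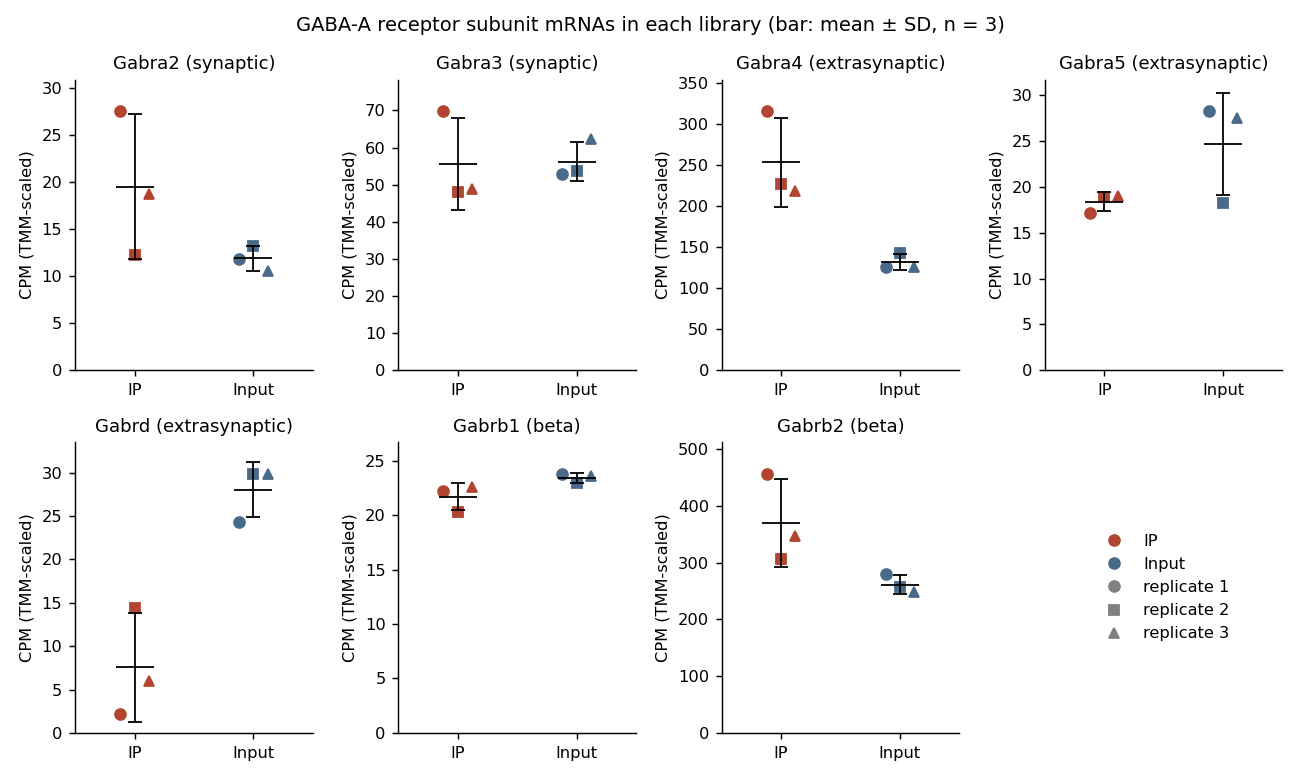
TMM-scaled CPM of the 7 subunits in each IP and Input library, with 1 panel per gene, its own axis from 0, marker shapes for replicate numbers and bars for mean ± SD (n = 3). Gabra4 and Gabrb2 lie higher and Gabrd lower in all 3 IP libraries, while IP replicate 1 is the highest library for Gabra2, Gabra3, Gabra4 and Gabrb2 and the lowest for Gabrd.

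Among the extrasynaptic subunits, Gabra4 had 316, 227 and 218 CPM in IP replicates 1 to 3, against 126, 144 and 126 CPM in Input. Every IP library exceeded every Input library, which was also so, in one direction or the other, for 61.6% of all genes. The log2 fold change was 0.94 (SE 0.14, adjusted p = 6.64e-04). The labels give same-numbered libraries the same lane tag, and within these pairs the log2 ratios were 1.33, 0.66 and 0.79. Gabra4 therefore rose in each pair, most in replicate 1. Without replicate 1 in both groups it was 0.73 (adjusted p = 0.00215).

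Gabrd, the subunit that makes a receptor extrasynaptic and highly sensitive to GABA, had 2.20, 14.5 and 6.02 CPM in IP replicates 1 to 3, against 24.4, 29.9 and 29.9 CPM in Input. The groups did not overlap, but the IP libraries were spread over several-fold, with a coefficient of variation of 82.9% in IP and 11.4% in Input. These levels rest on 110, 663 and 256 counts in IP and on 622, 1553 and 1563 counts in Input. The log2 fold change was -1.89 (SE 0.52, adjusted p = 0.0147), with -3.44, -1.05 and -2.30 in the replicate pairs. Gabrd lost its call without IP replicate 3 (-1.74, adjusted p = 0.0530) and without replicate 3 in both groups (-1.70, adjusted p = 0.133). Without replicate 1 it was -1.54 (adjusted p = 0.0213), and with the replicate number as a block it was -2.24 (adjusted p = 4.08e-04). In bulk RNA of this kind, fewer cells of a type and less RNA per cell cannot be told apart.

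Gabra5, known best from extrasynaptic receptors of the hippocampus, had 17.2, 18.9 and 19.0 CPM in IP replicates 1 to 3, against 28.3, 18.3 and 27.5 CPM in Input. Input replicate 2 lay within the IP values, so the groups overlapped. The log2 fold change of -0.42 (SE 0.19) did not pass (adjusted p = 0.0898). It passed without Input replicate 2 (-0.59, adjusted p = 0.0278), without replicate 2 in both groups (-0.62, adjusted p = 0.0306), and under upper-quartile and library-total scaling.

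Neither of the synaptic alpha subunits described here, Gabra2 and Gabra3, passed the test. Gabra2, an alpha subunit of forebrain synapses, had 27.6, 12.2 and 18.7 CPM in IP replicates 1 to 3, against 11.8, 13.2 and 10.6 CPM in Input. IP replicate 2 lay within the Input values. Its log2 fold change of 0.71 (SE 0.28) did not pass (adjusted p = 0.0576) and moved between 0.38 without replicate 1 and 1.06 without replicate 2 (adjusted p = 0.292 and 0.0188). Gabra3 had 69.9, 48.1 and 48.9 CPM in IP, against 52.8, 53.6 and 62.2 CPM in Input. Its highest and its lowest libraries were both IP libraries, and the log2 fold change was -0.01 (SE 0.16, adjusted p = 0.948).

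Markers of other cells moved in the same comparison. The numbers of markers called below stand beside 23.3% higher and 24.3% lower over all genes tested. The GABAergic and reticular nucleus markers, of which 7 of 10 tested were lower and 1 higher, summed to 136 to 145 CPM in IP and 602 to 847 CPM in Input. Astrocyte markers, lower in 10 of 10, summed to 860 to 935 CPM in IP and 2498 to 2564 CPM in Input. None of the GABAergic or astrocyte markers tested was at 0 in all IP libraries. Of the glial lists, oligodendrocyte markers were lower in 8 of 8 (308 to 385 CPM summed in IP, 3541 to 4094 CPM in Input), oligodendrocyte precursor markers in 5 of 5 (15.9 to 25.3 CPM in IP, 227 to 229 CPM in Input) and microglial markers in 5 of 6 (3.42 to 6.75 CPM in IP, 36.6 to 43.0 CPM in Input). Habenula markers were lower in 7 of 7 (23.5 to 36.9 CPM in IP, 88.5 to 124 CPM in Input). Endothelial markers were lower in 3 of 5 (10.8 to 19.7 CPM summed in IP, 31.7 to 32.5 CPM in Input). Cldn5 was at 0 in all IP libraries, but had only 0.27, 0.21 and 0.94 CPM in Input replicates 1 to 3. Cortical and hippocampal markers, with 2 higher and 3 lower of 8 tested, summed to 1085 to 1137 CPM in IP and 811 to 987 CPM in Input. Camk2a alone gave 842 to 865 CPM of the sum in IP and 533 to 658 CPM in Input, while the list's median log2 fold change was -0.38 and Tbr1 (-2.81) and Bcl11b (-2.03) fell. The part of these cells in the values of Gabrd, Gabra3 and Gabra5 was not tested.

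Ratios of subunits within a library do not depend on the scaling between libraries. They are given as a description, without a test. Per 100 counts of Gabra4 there were 0.696, 6.37 and 2.76 counts of Gabrd in IP replicates 1 to 3, against 19.4, 20.8 and 23.7 in Input. The Input ratios were close together and all IP ratios were lower. On the log2 CPM scale the mean Gabrd to Gabra4 difference was -5.42 ± 1.60 in IP, against -2.23 ± 0.15 in Input (3 libraries each, ± SD), and the change within the replicate pairs was -4.77, -1.71 and -3.09. Gabra4 against Gabra3 moved the other way and was even in IP. Per 100 counts of Gabra3 there were 453, 471 and 446 counts of Gabra4 in IP, against 238, 268 and 203 in Input. The same ratio to Gabra2 overlapped between the groups, with 1148, 1857 and 1164 in IP, against 1064, 1084 and 1192 in Input.

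By class, the extrasynaptic subunits did not move as one. The mean log2 CPM of Gabra4, Gabra5 and Gabrd minus that of Gabra2 and Gabra3 was -0.93, 0.71 and -0.05 in IP replicates 1 to 3, against 0.82, 0.68 and 0.87 in Input. IP replicate 2 lay within the Input values, and the other IP libraries lay below them. The mean IP minus Input difference was -0.88, and it was -0.46 without IP replicate 1 and -1.28 without IP replicate 2. No test was made of this score, since its members were chosen with results of these data known. Within the extrasynaptic class Gabrd was lower and Gabra4 higher in IP.

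**Figure D2:**
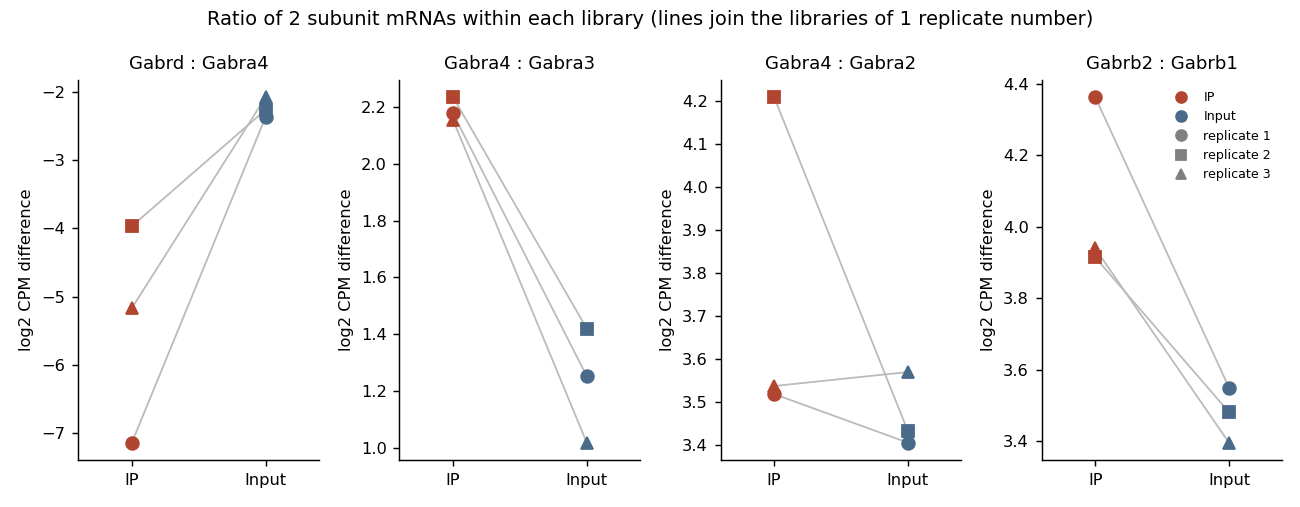
Difference in log2 CPM between 2 subunits within each library, for Gabrd to Gabra4, Gabra4 to Gabra3, Gabra4 to Gabra2 and Gabrb2 to Gabrb1, each panel with its own axis, and with lines that join the IP and Input libraries of 1 replicate number. Gabrd to Gabra4 averages -5.42 in IP and -2.23 in Input, Gabra4 to Gabra3 averages 2.19 in IP and 1.23 in Input, and Gabra4 to Gabra2 overlaps between the groups.

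Of the beta subunits, which line the GABA-binding site together with alpha, Gabrb2 had 457, 307 and 348 CPM in IP replicates 1 to 3, against 279, 256 and 249 CPM in Input. All IP libraries were higher, replicate 1 by the most. The log2 fold change was 0.50 (SE 0.14, adjusted p = 0.0135), with 0.71, 0.26 and 0.48 in the replicate pairs. This call was lost without Input replicate 3 (0.47, adjusted p = 0.0532), without replicate 3 in both groups (0.52, adjusted p = 0.0921), under upper-quartile scaling (0.33, adjusted p = 0.0859), under library totals (0.26, adjusted p = 0.0966) and with a stricter filter (0.34, adjusted p = 0.0504). The scaling also moved the median of all genes, from -0.07 under TMM to -0.25 under upper quartiles and -0.31 under library totals. Relative to that median Gabrb2 stood 0.57, 0.57 and 0.56 higher under these 3 scalings, and Gabra4 at least 1.0; with the stricter filter Gabrb2 stood 0.33 higher. The calls over all genes were 3930 higher and 4100 lower under TMM, 2887 and 4981 under upper quartiles, and 2458 and 5240 under library totals.

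Gabrb1 had 22.2, 20.3 and 22.6 CPM in IP, against 23.8, 22.9 and 23.6 CPM in Input. The IP values all lay just below the Input values, and the log2 fold change of -0.11 (SE 0.13) did not pass (adjusted p = 0.514). Per 100 counts of Gabrb1 there were 2061, 1511 and 1537 counts of Gabrb2 in IP, against 1173, 1118 and 1054 in Input, with no overlap. This ratio was not tested. In the CPM of single genes, IP and Input libraries did not overlap for 61.6% of all genes.

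Levels of different genes were compared per kilobase of annotated exon (GENCODE M21), which may not be the transcript form these cells make. In IP the order was Gabrb2 (58.3 ± 12.2 CPM per kilobase), Gabra4 (41.7 ± 8.95), Gabra3 (14.2 ± 3.15), Gabra5 (6.18 ± 0.348), Gabrd (2.63 ± 2.18), Gabra2 (2.55 ± 1.01) and Gabrb1 (1.57 ± 0.0881), all as mean and SD of 3 libraries. The ranges of Gabrb2 and Gabra4 overlapped in IP, as did those of Gabrd with Gabra2 and of Gabra2 with Gabrb1. In Input the order was Gabrb2 (41.1 ± 2.51 CPM per kilobase), Gabra4 (21.7 ± 1.67), Gabra3 (14.3 ± 1.34), Gabrd (9.76 ± 1.11), Gabra5 (8.30 ± 1.88), Gabrb1 (1.69 ± 0.0340) and Gabra2 (1.56 ± 0.175). There the ranges of Gabrd and Gabra5 overlapped, and so did those of Gabrb1 and Gabra2. The first 3 places were the same in both groups. As a share of the summed level per kilobase of the 7 subunits, Gabrd held 2.26 ± 2.03% in IP, against 9.92 ± 1.21% in Input (± SD over 3 libraries). Gabra4 held 32.7 ± 1.5% in IP, against 22.0 ± 1.89% in Input.

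Several of the subunit genes lie in clusters, and in that of chromosome 5 calls ran in both directions. On chromosome 5 (mm10, GENCODE M21) the minus-strand genes Gabrg1 (70751047 to 70842617), Gabra2 (70957597 to 71095849) and Gabra4 (71569749 to 71658308) are followed by Gabrb1 on the plus strand (71658113 to 72149037). In that cluster Gabra4 rose, Gabrg1, a gamma subunit gene, fell (4.37 ± 1.25 CPM in IP and 10.7 ± 2.90 CPM in Input, with a log2 fold change of -1.29, SE 0.31 and adjusted p = 0.00713), and Gabra2 and Gabrb1 were not called. The 5′ ends of Gabra4 and Gabrb1 overlap by 196 bases, of which 46 are exonic in both. The sources used here do not give a strand setting for the counting, and reads in those bases could not be told apart. Their log2 CPM difference, Gabra4 minus Gabrb1, averaged 3.53 ± 0.29 in IP, against 2.49 ± 0.14 in Input (3 libraries each, ± SD), without overlap between the groups.

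The other members lie on chromosome 7 (Gabra5, 57407672 to 57510059, minus strand), chromosome 11 (Gabrb2, 42419757 to 42629028, plus strand), the X chromosome (Gabra3, 72432681 to 72656848, minus strand) and chromosome 4 (Gabrd, 155384980 to 155398112, minus strand). Gabra5 shares 148 exonic bases with Gm9962, an antisense gene. Beside Gabra5, the gamma subunit Gabrg3 rose to 22.3 ± 1.18 CPM in IP, against 15.9 ± 1.22 CPM in Input (log2 fold change of 0.49 with SE 0.15, adjusted p = 0.0213). Beside Gabra3, Gabrq, the theta subunit, fell to 2.26 ± 1.18 CPM in IP, against 10.5 ± 3.96 CPM in Input (log2 fold change of -2.21, adjusted p = 0.00279). Gabre, the epsilon subunit, was called lower on 7, 0 and 0 counts in IP, against 50, 41 and 32 in Input.

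**Figure D3:**
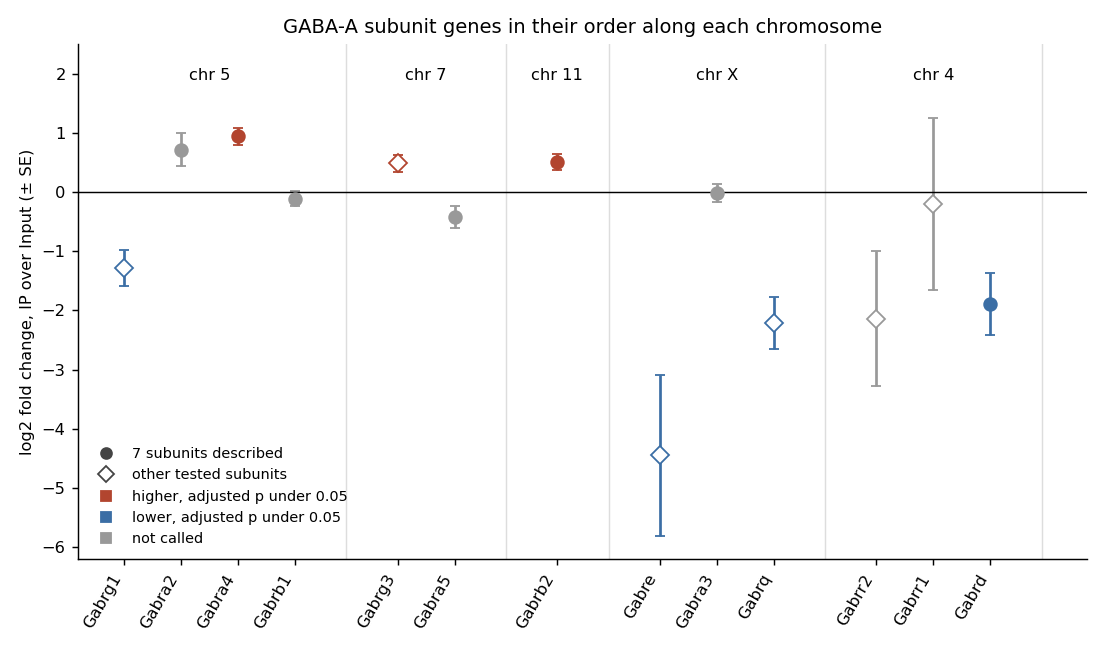
Log2 fold change of IP over Input with its SE for 13 GABA-A subunit genes tested, placed in their order along each chromosome; filled circles are the 7 subunits described, open diamonds the other tested subunits, and colours give the call. On chromosome 5 Gabra4 is higher (0.94) and Gabrg1 lower (-1.29), on chromosomes 7 and 11 the called genes, Gabrg3 and Gabrb2, are higher, and on the X chromosome and chromosome 4 they are lower.

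Of the 6 other subunits tested and described here, Gabrg3 rose, Gabrg1, Gabrq and Gabre fell, and Gabrr1 and Gabrr2, rho subunits, were not called (adjusted p = 0.923 and 0.152). That made 1 higher and 3 lower, beside 23.3% higher and 24.3% lower over all genes tested. Gabra6, Gabrp and Gabrr3 had 0 counts in all IP libraries and were not tested. Gabrg3 lost its call under upper-quartile and library-total scaling, with the stricter filter, and without replicate 2 or 3 of Input or of both groups. Some subunit genes are not among these, so the counts do not describe the family.

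The promoter windows of Gabra4 and Gabrb2, the members called higher in IP, are printed from RefSeq (GRCm38.p6). Each runs from 250 bases before the start to 50 bases from it. The Gabra4 window is chr5:71658259-71658558 on the minus strand, and that of Gabrb2, the first of its windows in the table, is chr11:42420190-42420489 on the plus strand. Capitals mark matches, on either strand, to the GC box GGGCGG and the TATA box TATAAA.
Gabra4: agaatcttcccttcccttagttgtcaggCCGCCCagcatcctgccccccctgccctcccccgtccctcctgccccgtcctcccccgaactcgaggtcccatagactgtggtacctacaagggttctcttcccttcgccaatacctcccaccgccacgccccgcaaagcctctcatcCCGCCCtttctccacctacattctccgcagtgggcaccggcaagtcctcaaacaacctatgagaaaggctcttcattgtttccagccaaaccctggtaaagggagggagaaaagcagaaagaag
Gabrb2: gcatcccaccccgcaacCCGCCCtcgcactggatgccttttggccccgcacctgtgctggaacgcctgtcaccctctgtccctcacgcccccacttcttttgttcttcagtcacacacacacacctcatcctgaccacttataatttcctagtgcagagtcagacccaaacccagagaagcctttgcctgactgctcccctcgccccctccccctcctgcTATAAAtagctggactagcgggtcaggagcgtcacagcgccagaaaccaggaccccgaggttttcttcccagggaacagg
The Gabra4 window holds 2 GC boxes and no TATA box, and the Gabrb2 window holds 1 of each. The GC box occurs in 35.7% and the TATA box in 13.6% of all 32851 windows. Neither printed window holds the cyclic AMP response element TGACGTCA, the Egr motif GCGTGGGCG or the TCF/LEF core ATCAAAG, which occur in 1.79%, 0.612% and 3.73% of windows. The other Gabrb2 windows in the table, chr11:42420524-42420823 and chr11:42420951-42421250, hold neither a GC box nor a TATA box, and the second of them holds 1 TCF/LEF core. In the printed windows the GC content was 58.7% for Gabra4 and 59% for Gabrb2, and the median of all windows was 52.7%. Windows of members that were not called held such boxes too. That of Gabra2 (70% GC) held 2 GC boxes, and each Gabra3 window (43% and 39.3% GC) held 1 TATA box. The windows of Gabrb1 (66% and 50.3% GC) and Gabra5 (56.7% GC) held neither box. The RefSeq table matched 6 of the 7 members, and Gabrd was the other.

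Genes listed for the inhibitory postsynapse were mixed. Of these 14 genes, 4 rose and 5 fell (median 0.10), beside 23.3% higher and 24.3% lower over all genes tested. Nlgn2, the neuroligin of inhibitory synapses, rose to 138 ± 10.9 CPM in IP, against 91.5 ± 4.73 CPM in Input (log2 fold change of 0.60 with SE 0.09, adjusted p = 8.39e-04). Lhfpl3 rose 4.66-fold (279 ± 55.9 CPM in IP, 59.8 ± 2.38 CPM in Input). It is a relative of Lhfpl4, which links receptors with a gamma subunit to neuroligin-2. Lhfpl4 itself rose less (log2 fold change 0.56, SE 0.11, adjusted p = 0.00312). The largest decreases were in Mdga1, which binds neuroligin-2 and restrains it (log2 fold change -2.13, SE 0.32, adjusted p = 6.13e-04), and in the dystrophin gene Dmd (-1.36, SE 0.10, adjusted p = 1.23e-05). The scaffold gephyrin, Gphn, had 55.3 to 74.6 CPM in IP and 62.2 to 67.1 CPM in Input and was not called (log2 fold change 0.00, SE 0.12, adjusted p = 0.978). Gphn and Lhfpl4 were named after their values were seen.

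Genes of receptor transport gave 5 higher and 2 lower of 12 (median 0.11), 7 called in all, beside 47.5% of all genes tested. Gabarapl2 (log2 fold change 1.16, SE 0.17) and Gabarap, a receptor-associated protein (1.04, SE 0.11, 208 ± 30.5 CPM in IP, 101 ± 5.30 CPM in Input), rose most. Plcl1, an inositol phosphate-binding protein that takes part in receptor trafficking (-1.77, SE 0.13), and Hap1, which takes part in receptor recycling (-0.91, SE 0.16), fell. The adjusted p-values for this group of 4 genes ran between 1.07e-05 and 0.00137. Of 6 genes of the GABA-B receptor, the metabotropic GABA receptor, both receptor subunits rose, Gabbr1 with 734 ± 8.15 CPM in IP and 428 ± 23.3 CPM in Input (0.78, SE 0.07, adjusted p = 3.78e-05) and Gabbr2 by less (0.45, SE 0.09, adjusted p = 0.00314). The auxiliary subunit genes Kctd12b (-2.33, SE 0.45, adjusted p = 0.00264) and Kctd12 (-0.34, SE 0.10, adjusted p = 0.0209) fell, and the list's median was 0.02. With 2 higher and 2 lower of 6, this list stood beside 23.3% higher and 24.3% lower over all genes tested.

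Likeness of profile was measured as the Euclidean distance in log2 CPM over the 6 libraries, each gene centred on its own mean, among the 10788 genes that averaged at least 5 CPM. The nearest to Gabra4 were Tnc (distance 0.08) and Arg2 (0.15), and those to Gabrb2 were Dnajb1 (0.08) and Smarca5 (0.09). Gabrd had no such close neighbours: Mpzl1 (0.71) and Cep192 (0.75) were nearest. For Gabra2 they were Tmem69 (0.18) and Ccdc34 (0.21), for Gabra3 Armcx3 (0.15), for Gabra5 Utrn (0.28) and Rnf25 (0.30), and for Gabrb1 Usp30 (0.08) and Papd5 (0.08). With 6 libraries in 2 groups these distances are a description only.

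**Figure D4:**
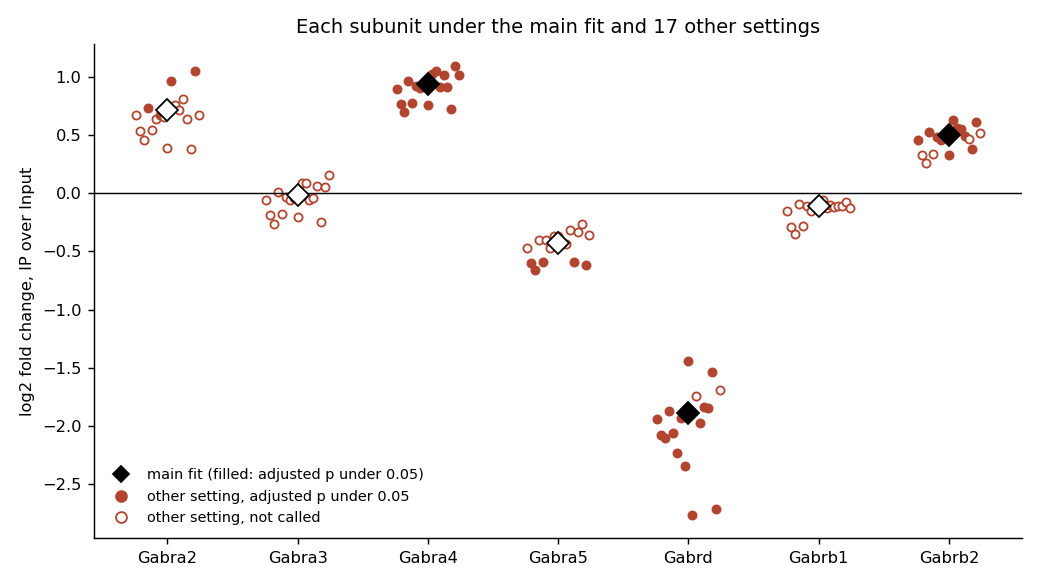
Log2 fold change of IP over Input for each of the 7 subunits in the main fit (diamond) and under 17 other settings of scaling, filter, test, replicate block or libraries left out (circles, filled where the adjusted p was under 0.05). Gabra4 stays between 0.70 and 1.09 and is called in all 17, Gabrd stays between -2.77 and -1.44 and is called in 15, and Gabrb2 is called in 12.

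Over the 17 other settings, as the plot of settings shows, Gabra4 was called higher in all 17, with log2 fold changes of 0.70 to 1.09. Gabrd was lower in all 17 and called in 15 (-2.77 to -1.44), and Gabrb2 was higher in all 17 and called in 12 (0.26 to 0.63). Gabra2 was called in 4 and Gabra5 in 5, and Gabra3 and Gabrb1 in 0, where their lowest adjusted p-values from any tool were 0.148 and 0.0592.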

How the data were processed

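Each of the 6 deposited files held unnormalized read counts by gene symbol for 1 library (3 IP, 3 Input), grouped and numbered by their titles. Reads were aligned with STAR 2.0.0e to mm10 and counted with HTSeq, per the submitters' processing notes. The HTSeq version, strand setting and annotation are not given in the sources used here. The 6 lines tied to no gene entered neither library sizes nor tests. They held 53.2 to 59.8% of all lines' counts in IP and 53.7 to 55.4% in Input, mostly reads not aligned uniquely. Such reads made up 43.2 to 49.7% of all lines' counts in IP and 32.7 to 34.0% in Input.

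The test was run in edgeR 4.0.16 under R 4.3.3: filterByExpr (minimum count 10), TMM scaling and the robust quasi-likelihood F-test over 16898 genes, with Benjamini-Hochberg adjustment over all of them and a threshold of 0.05. The standard error (SE) of a log2 fold change came from the F statistic, and log2 CPM used a prior count of 2. Alternatives used DESeq2 1.42.0, limma 3.58.1 (voom), other scalings and filters, a replicate block and libraries left out. Same-numbered libraries share a lane tag in the labels, which is where the pairing comes from. Their deviations from the group means correlated at 0.0636, 0.0386 and 0.0124.

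The 7 subunits and all lists were chosen with earlier results of these data known. Named genes were the 7 subunits, Cbln1, from each partner list the called genes, averaging 1 CPM or more, with the 2 most positive and 2 most negative fold changes, and the 2 genes nearest in profile to each subunit. Gabre, Gabrr1, Gabrr2, Camk2a, Tbr1, Bcl11b and Ttr were named after their values were seen. A few genes were left out of the text. Sequences and positions came from GENCODE M21 and RefSeq. Counting error sets only a lower limit to the error of each value.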

Additional observations from a re-analysis of the deposited data

How the results depend on the processing

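Gabra4, Gabra3 and Gabrb1 kept their side of the threshold under all 17 alternatives. Gabra2 was called without the filter (0.74, adjusted p = 0.0361) and with DESeq2 (0.68, adjusted p = 0.0485). Gabra5 was called under upper quartiles (-0.60), library totals (-0.66) and the stricter filter (-0.59). Gabrb2 lost its call under upper quartiles (0.33), library totals (0.26) and the stricter filter of 1 CPM in all 6 libraries (0.34, adjusted p = 0.0504). Relative to the all-gene median it stood at 0.57, 0.56 and 0.33 under these, against 0.57 as reported. The cause was not tested. With libraries or replicate numbers left out, log2 fold changes ran from 0.38 to 1.06 (Gabra2), -0.62 to -0.26 (Gabra5), 0.33 to 0.63 (Gabrb2) and -2.77 to -1.44 (Gabrd), with all 9 such values positive for Gabra4 (0.73 to 1.09). With the replicate number as a block, Gabrd was -2.24 and Gabra4 0.92, and no subunit's call changed. Where such a fit left 1 group with 2 libraries, the spread was pooled over groups.

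Library totals called 2458 genes higher, 4 trafficking genes lower and 1 GABA-B gene higher. Other GABA-A subunits higher, 1 with the settings reported, numbered 0 under upper quartiles, library totals and the stricter filter. With libraries left out, they numbered 0 to 1, and were 0 when Input replicate 2, Input replicate 3, or number 2 or 3 in both groups was dropped. GABA-B genes lower then numbered 1 to 3, with 1 when IP replicate 3, a single Input library, or number 2 or 3 in both groups was dropped. Genes of the inhibitory postsynapse numbered 2 to 5 higher, with 2 without replicate number 3, and 3 to 5 lower, with 3 when Input replicate 1, or number 1 or 3 in both groups, was dropped. The class score was -2.23 for Gabrd against Gabra3 alone, and -1.28 to -0.46 with single libraries left out.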
